A study of Mus musculus with 20 samples.

Results

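The genes described here encode the proteins of the mitochondrial ribosome and carry symbols that start with Mrpl or Mrps and a digit. There were 73 such genes among the 10625 genes tested. They were found by symbol in the platform's probe table, so no measured value decided which genes belong. The family itself and the lists compared with it were chosen with earlier results of these data known. After probes with too few values were left out, 155 probes that list a single gene remained for them. A further probe in the table was not kept for each of Mrpl11, Mrpl49, Mrps10, Mrps17 and Mrps24. Of the 73 genes, 25 then had 1 probe and 48 had several, and 70 had a value on all 20 arrays. By their known place in the ribosome, 49 encode proteins of the large subunit and 23 proteins of the small subunit. The remaining one, Mrps36, keeps its old name although its protein belongs to the oxoglutarate dehydrogenase complex of the citric acid cycle. The names of Mrps18a and Mrps30 mislead in another way, because both proteins sit in the large subunit.

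Mitochondria keep their own ribosomes, which make only the few respiratory chain and ATP synthase proteins that mitochondrial DNA encodes. The ribosomal RNAs come from mitochondrial DNA, while every protein of these ribosomes is encoded in the nucleus, made in the cytosol and imported. Many of these proteins have relatives in bacterial ribosomes, and others are found in mitochondrial ribosomes and not in bacterial ones. Their genes are separate from the Rpl and Rps genes of cytosolic ribosomes.

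The study compared mouse fibroblasts lacking heat shock factor 1 (HSF1 -/-, called KO) with fibroblasts that have it (HSF1 +/+, called WT) through a heat shock. HSF1 is the transcription factor that turns on chaperone genes when proteins unfold. For each genotype there were 3 arrays of unheated cells (0 h) and a single array per later time, at 0.5, 1, 2, 3, 4, 6 and 8 h. Whether cells stayed in the heat until harvest is not stated in the labels. The groups were therefore KO late, KO early and KO 0 h cells, and WT late, WT early and WT 0 h cells, where early joins 0.5, 1 and 2 h (n = 3) and late joins 3, 4, 6 and 8 h (n = 4). On every 2-colour array the Cy5 sample was set against a Cy3 pool of mRNA from heated and unheated fibroblasts. A level below is the log2 ratio of sample to pool, centred on the median of its array and given relative to the gene's mean over all 20 arrays. A difference is the log2 difference between groups with the SE of the limma fit. Separate cultures are not stated for the 0 h arrays, and the arrays of a window are different times and not replicates, so a p-value here measures spread between arrays alone. Genotype and any other difference between the cell lines cannot be told apart. A ratio to a fibroblast pool also cannot show which cell types were present, and fewer cells and less RNA per cell cannot be told apart.

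The arrays held 39037 to 42220 values each, and their number limits the precision. Hsf1 had no probe listing it, and its transcript was not analysed here. Dnajb1, a co-chaperone induced through HSF1, served as a check of the labels: its late difference from 0 h was 0.00 ± 0.25 in KO cells (adjusted p = 0.997) and 2.11 ± 0.25 in WT cells (limma adjusted p = 0.00121). Hspa1a and Hsph1, chaperones also induced through HSF1, were at -0.01 and -0.18 late in KO cells and rose by 5.83 and 2.32 late in WT cells. Among 22 measured markers of 6 other cell types, 1 was past the threshold between genotypes at 0 h (Cd68, lower in KO), 4 in heated cells (Cd68 and Acta1 lower, Fabp4 and Pparg higher in KO), 0 late in WT cells and 3 late in KO cells (Lyz2 higher, Acta1 and Fabp4 lower). Of 10 fibroblast markers 7 were measured. In KO cells Col3a1 was higher and Fn1 lower at 0 h and in heated cells, and Col1a2 was lower in heated cells. The late medians of the 7 were -0.32 in KO cells, with Col1a2 lower, and -0.36 in WT cells, with 6 of 7 below 0 in each. The part of these markers in the results below was not tested. The width of the arrays, as the median absolute deviation of all values, ran from 0.682 to 1.18 and moved with the members' medians, as given below.

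**Figure D1:**
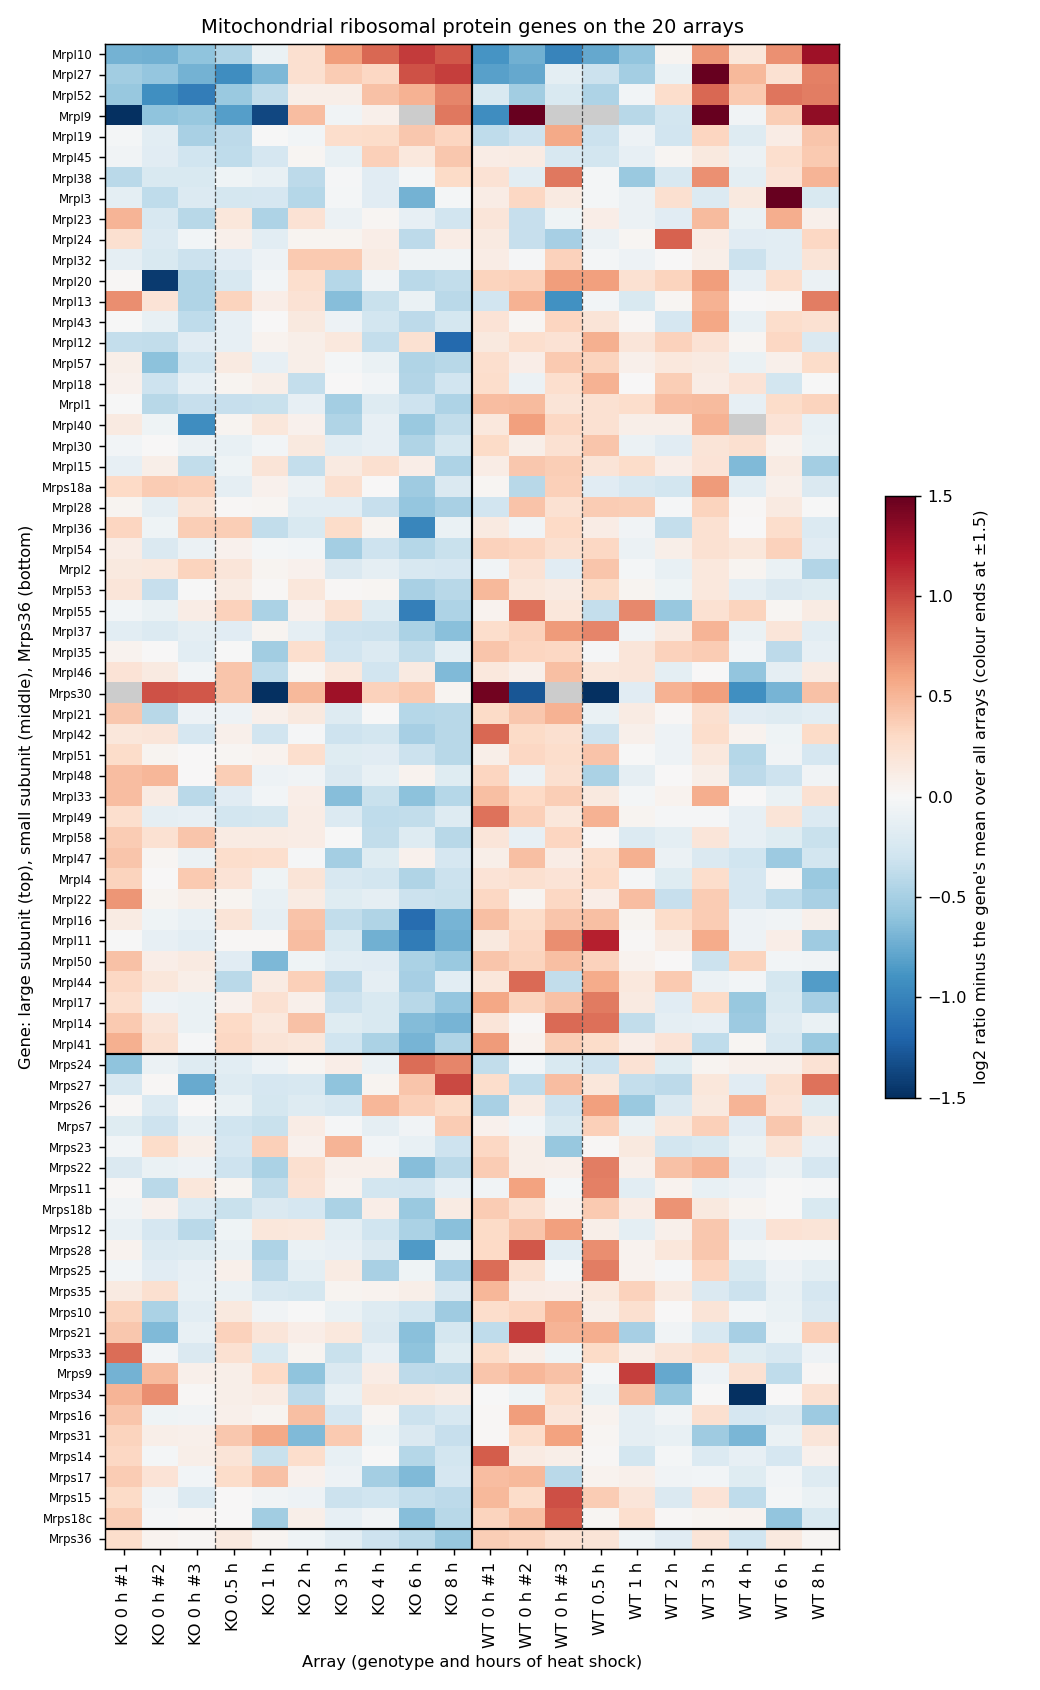
Levels of the 73 genes on the 20 arrays, as log2 ratio minus each gene's mean over all arrays (red above, blue below, grey missing; colours end at ±1.5), with KO arrays left and WT arrays right, each from 0 h to 8 h, and dashed lines after the 0 h arrays. Genes run from the large subunit at the top to the small subunit and Mrps36, each ordered by the mean of its late differences. Mrpl10, Mrpl27 and Mrpl52 at the top turn from blue at 0 h to red late in both genotypes, while most other rows are redder on the WT 0 h arrays and bluer on the late KO arrays.

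As a group the members were modestly lower in KO cells and modestly lower late in the heat shock. The median level of the members was 0.13, -0.07 and -0.11 on the KO 0 h arrays, against 0.22, 0.24 and 0.24 on the WT 0 h arrays. Every KO 0 h array lay below every WT 0 h array, and the first KO array was nearest to them. In KO cells the median was 0.02, -0.07, 0.07, -0.12, -0.13, -0.39 and -0.28 from 0.5 to 8 h. In WT cells it was 0.18, 0.02, -0.02, 0.21, -0.11, 0.00 and -0.08 at the same times. All 4 late KO medians lay under the 3 KO 0 h medians, but KO 3 h (-0.117) was almost level with KO 0 h array 3 (-0.114). All 4 late WT medians lay under the 3 WT 0 h medians, with WT 3 h the nearest (0.207, against 0.216 on WT 0 h array 1). The median over all genes stayed between -0.05 and 0.06 on every array.

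**Figure D2:**
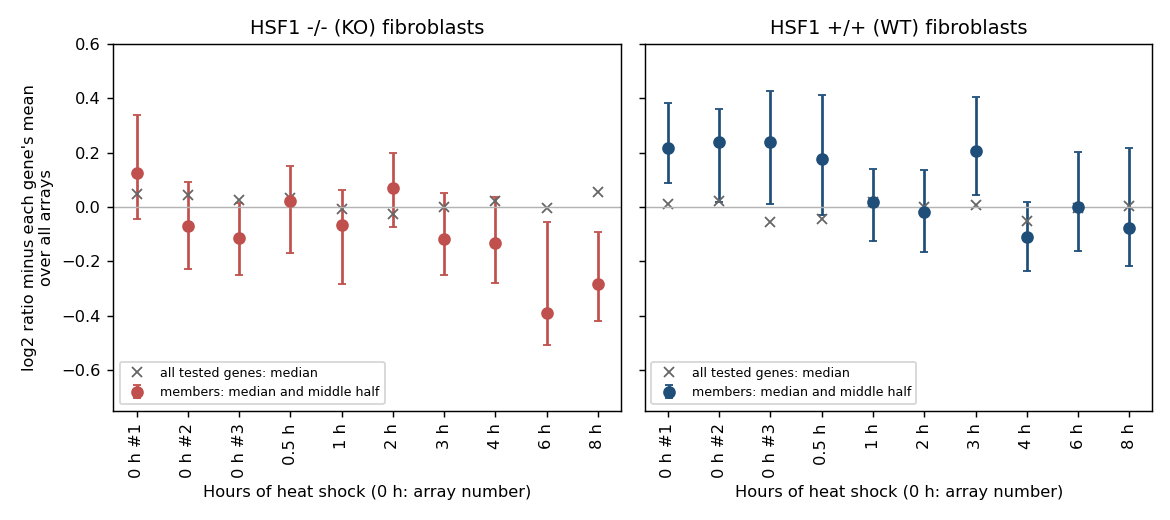
Median level of the members on each array (points, with lines from the lower to the upper quartile of the members) and of all tested genes (crosses), as log2 ratio minus each gene's mean over all arrays, KO left and WT right. The members sit at 0.22 to 0.24 on the 3 WT 0 h arrays and lowest, at -0.39, on the KO 6 h array.

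The width of the arrays moved with these medians. Width was 1.12, 0.80 and 0.90 on the KO 0 h arrays, against 1.10, 1.08 and 1.12 on the WT 0 h arrays. It was 0.68 to 0.85 on the late KO arrays and 0.81 to 1.10 on the late WT arrays, with the WT 3 h array, whose members stood highest, at 1.10. With all arrays scaled to one width the members' median difference between KO and WT cells at 0 h was -0.20, against -0.25 without scaling, and the members called there were 1 and 3.

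The first comparison asked whether unheated cells of the genotypes differ in these transcripts. Of the 73 members 3 were lower in KO cells, 0 were higher and 70 did not pass, while 6.64% of all genes passed in either direction, 3.6% lower and 3.04% higher. The share of members past the threshold was thus near that of all genes. Their median difference was -0.25, against 0.05 over all genes, and 57 of the 73 differences were below 0, against 45.3% of all genes. In 22 members every KO array lay below every WT array, against 11.9% of all genes, and in 1 member (Mrpl10) every KO array lay above, against 13.2%, though its nearest arrays were almost level. The large subunit had 2 lower of 49 (median -0.27) and the small subunit 1 lower of 23 (median -0.25).

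Mrps12, which encodes a protein at the decoding site of the small subunit, had levels of -0.11, -0.25 and -0.41 in KO cells and 0.29, 0.42 and 0.61 in WT cells. The groups did not overlap, and the difference was -0.70 ± 0.17 (1.62-fold lower, limma adjusted p = 0.0168), with both probes below 0 (-0.84 and -0.56). Mrpl20, a large subunit protein that binds ribosomal RNA in its bacterial relative, had levels of 0.02, -1.44 and -0.45 in KO cells and 0.33, 0.36 and 0.62 in WT cells. One KO array lay far below the others. The difference was -1.06 ± 0.28 (2.09-fold, adjusted p = 0.0304), and it was -0.66 without that array (adjusted p = 0.141). Mrpl1, a large subunit protein related to bacterial L1, had levels of -0.01, -0.42 and -0.35 in KO cells and 0.46, 0.48 and 0.19 in WT cells. The groups were apart (-0.63 ± 0.17, adjusted p = 0.0312), but its probes gave -1.21 and -0.06. The calls of Mrps12 and Mrpl1 were lost with quantile normalization and with scaled widths, and all 3 calls with only the 0 h arrays in the fit. They also rested on single arrays: without KO array 2 or KO array 3 no member passed (limma), without WT array 1 or WT array 3 only 1 passed, and without KO array 1 there were 5. Unadjusted p was under 0.05 for 15 members, all lower in KO cells, or 20.5% of them, against 20.8% of all genes.

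The promoter of Mrps12 is shown because it holds motifs of both GABPA and YY1, the motifs most frequent among the members. Capitals mark, from the 5′ end, the YY1 motif (AAGATGGC, here on the other strand) and the GABPA motif (CCGGAAG). The window lies at chr7:28741772-28742071 on the minus strand of GRCm38.p6, from RefSeq, and holds 250 bases before and 50 after the start of the gene:
Mrps12: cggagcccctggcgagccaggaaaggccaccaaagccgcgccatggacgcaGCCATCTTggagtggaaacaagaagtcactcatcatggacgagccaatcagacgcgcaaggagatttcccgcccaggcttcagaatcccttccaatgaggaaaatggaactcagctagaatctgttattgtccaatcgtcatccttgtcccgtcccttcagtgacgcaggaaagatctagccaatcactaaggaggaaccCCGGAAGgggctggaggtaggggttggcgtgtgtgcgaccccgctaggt

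The same 300-base window was found for 64 of the 73 members. On either strand, 24 of the 64 (37.5%) held the GABPA motif CCGGAAG, against 9.12% of the 27025 promoters in the table. The YY1 motif AAGATGGC stood in 12 (18.8%), against 2.88% of all promoters. The palindromic motif of NRF1 stood in 2 (3.12%), against 0.977%. A heat shock element, searched as alternating GAA and TTC blocks in a run of 3 with a gap of 2 bases, stood in 0, against 0.529%. GABPA, NRF1 and YY1 are transcription factors known for their part in the expression of nuclear genes for mitochondria, and the heat shock element is the site bound by HSF1. The letters only describe these windows. The median KO minus WT difference at 0 h was -0.31 for the 24 with a GABPA motif, -0.38 for the 12 with a YY1 motif and -0.18 for the 30 with none of the 4 motifs. The late median in KO cells ran the other way, at -0.13, -0.18 and -0.33, and that in WT cells was -0.19, -0.21 and -0.30. In heated cells the KO minus WT medians were -0.13, -0.19 and -0.17. These differences between promoter classes were not tested.

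In heated cells the genotypes were compared over 7 arrays each. Of the 73 members 6 were lower in KO cells and 0 higher, while 10.3% of all genes passed in either direction, 6.07% lower and 4.19% higher. The members' share was again close to that of all genes. The median difference was -0.17, against 0.02 over all genes, and 58 members were below 0, against 47.7% of all genes. All 6 called genes encode large subunit proteins (6 of 49), and 0 of 23 small subunit genes passed by limma. The medians were nearly equal, at -0.16 (large) and -0.17 (small), and a difference between the subunits was not tested. Unadjusted p was under 0.05 for 19 members, all lower in KO cells, or 26% of them, against 22.4% of all genes.

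Mrpl1 had the lowest adjusted p and the largest difference of the 6. Its KO levels were -0.35, -0.33, -0.13, -0.51, -0.19, -0.31 and -0.46 from 0.5 to 8 h. The WT levels at these times were 0.23, 0.26, 0.46, 0.47, -0.12, 0.28 and 0.34. KO lay below WT at all 7 times, the groups did not overlap, and 4 h was the time of the smallest gap. The nearest arrays of the groups were almost level, at -0.125 (KO 2 h) and -0.123 (WT 4 h). The difference was -0.60 ± 0.11 (1.52-fold lower, limma adjusted p = 0.00174), and with any 1 of the 14 heated arrays left out adjusted p stayed at 0.00545 or less. Its probes gave -0.94 and -0.26. The levels of the first probe were within a root mean square difference of 0.0903 of a probe for Rpsa and of 0.114 of one for Rpl7a, both proteins of the cytosolic ribosome, and of 0.111 of Eef1g, an elongation factor subunit. The second probe had no probe of a named gene nearer than 0.213 (Nup43). These neighbours were looked up after the values of Mrpl1 were seen, and whether the first probe also reads other transcripts was not tested.

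Mrpl54, a protein found in mitochondrial ribosomes only, ranged from -0.51 to 0.06 in heated KO cells (median -0.31) and from -0.17 to 0.34 in heated WT cells (median 0.16). The ranges overlapped, with a difference of -0.36 ± 0.10 (adjusted p = 0.0297). Mrpl37, of the same class, ranged from -0.62 to 0.04 in KO cells (median -0.31) and from -0.16 to 0.73 in WT cells (median 0.13). Its 4 probes gave -0.53 to -0.44, and the gene's difference was -0.46 ± 0.13 (adjusted p = 0.0331). Mrpl16, a relative of bacterial L16, ranged from -1.15 to 0.43 in KO cells (median -0.37) and from -0.08 to 0.46 in WT cells (median 0.08). Its difference was -0.47 ± 0.13 (adjusted p = 0.033), with the widest gap at 6 h (-1.09) and a gap of the other sign at 2 h (0.16). Mrpl28 (-0.41 ± 0.12, adjusted p = 0.0414) and Mrpl33 (-0.43 ± 0.13, adjusted p = 0.047), relatives of bacterial L28 and L33, also passed with overlapping ranges. KO was below WT at every time in Mrpl28 and at 6 of 7 times in Mrpl33.

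Of these 5 calls, those of Mrpl28, Mrpl33 and Mrpl54 were lost with time as a block (3 of the 6 calls left). Mrpl28 was also lost without centring, and Mrpl33 with quantile normalization or scaled widths. With 1 probe per gene the calls of Mrpl16, Mrpl28, Mrpl33 and Mrpl37 were lost. All 5 depended on single arrays. The count of 6 fell to 1 without KO 6 h or WT 0.5 h. It was 2 without KO 0.5 h, KO 1 h, KO 2 h or WT 3 h, and 3 without KO 8 h or WT 6 h. KO lay below WT at all 7 times in 4 of the 71 members with every pair, Mrpl1, Mrpl12, Mrpl28 and Mrps28, and above it in 0, against 6.55% and 5.3% of all genes. In Mrpl1 and Mrps28 every heated KO array lay below every heated WT array, against 2.13% of all genes, and 0 members lay the other way, against 1.42%. The nearest arrays were almost level in Mrpl1, and at -0.09 (KO) and -0.05 (WT) in Mrps28. Mrps28 was at -0.46 ± 0.17 (adjusted p = 0.109). The median KO minus WT difference of the members was -0.18, -0.12, 0.10, -0.34, 0.00, -0.28 and -0.19 from 0.5 to 8 h. Fewest members were lower in KO cells at 2 h (30 of 73) and 4 h (36 of 72), and most at 3 h (59 of 73).

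**Figure D3:**
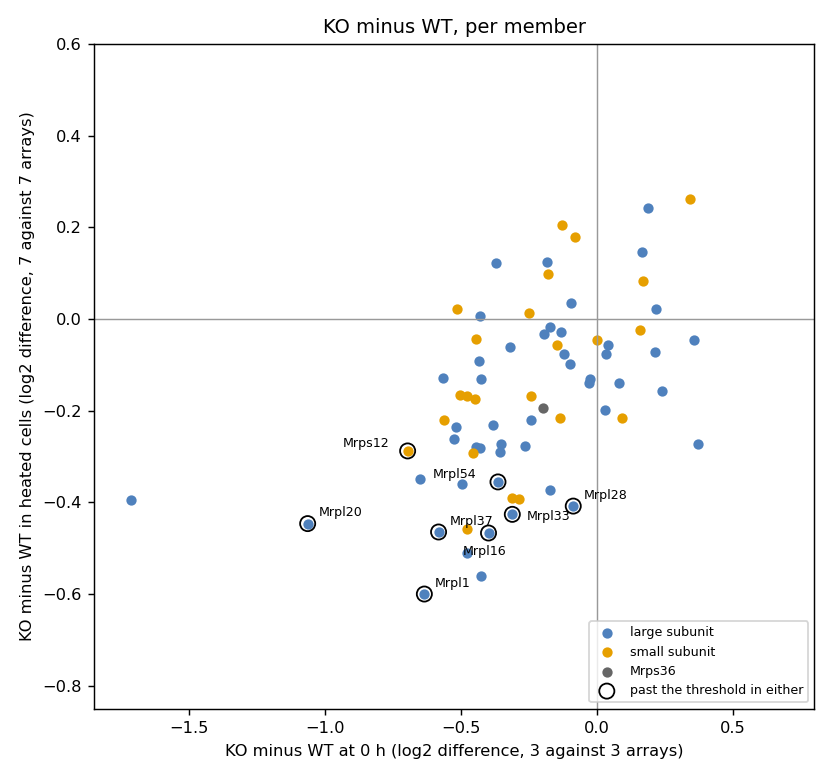
KO minus WT log2 difference of each member at 0 h (x axis, 3 against 3 arrays) and in heated cells (y axis, 7 against 7 arrays), coloured by subunit, with rings around members past the threshold in either. Of the 73 members 48 are below 0 in both comparisons and 6 above 0 in both. Mrps30, at 0.86 at 0 h and 0.67 in heated cells, lies outside the plotted range and is not shown. The point farthest left is Mrpl9, at -1.71 at 0 h.

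The 0 h and heated comparisons share no array. In 48 of the 73 members the difference was below 0 in both, against 28.9% of all genes. Mrpl1 was the member past the threshold in both. Mrps12 and Mrpl20, called at 0 h, were at -0.29 ± 0.11 (adjusted p = 0.116) and -0.45 ± 0.19 (adjusted p = 0.155) in heated cells. Among members named for a separate role, Mrpl12, the stalk protein that binds translation factors, was at -0.50 ± 0.26 at 0 h (adjusted p = 0.305) and -0.36 ± 0.17 in heated cells (adjusted p = 0.228). Mrps22, whose human counterpart is a mitochondrial disease gene, was at -0.31 ± 0.25 (adjusted p = 0.53) and -0.39 ± 0.16 (adjusted p = 0.16). Mrps16 was at -0.18 ± 0.21 and 0.10 ± 0.14. Mrpl3, a relative of bacterial L3, was at -0.43 at 0 h and -0.56 ± 0.28 in heated cells (adjusted p = 0.257), where its probes gave -1.12 and -0.01. The related S18 copies gave -0.29 ± 0.20 and -0.39 ± 0.13 (Mrps18b), -0.45 ± 0.23 and -0.17 ± 0.15 (Mrps18c), and 0.36 ± 0.23 and -0.04 ± 0.15 (Mrps18a), with no adjusted p under 0.05. Among members with a value on every array, highest in KO cells were Mrpl13 at 0 h (0.37 ± 0.32, adjusted p = 0.56) and Mrps34 in heated cells (0.26 ± 0.25, adjusted p = 0.588), and neither passed. Next to them were Mrps18a at 0 h (0.36) and Mrpl10 in heated cells (0.24).

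Cytosolic ribosomal protein genes differed far more between the genotypes in the same fit. Of 64 measured, 54 were lower in KO cells at 0 h (median -0.998) and 47 in heated cells (median -0.55). Nuclear genes of the respiratory chain were nearer to the members, with 11 lower and 1 higher of 90 at 0 h (median -0.31) and 13 lower and 1 higher in heated cells (median -0.20). The difference between these sets and the members was not tested.

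The early window asked what happened in the first 2 h of heat. No member passed in KO cells or in WT cells by limma, and 0% and 0.0376% of all genes did. Unadjusted p was under 0.05 for 4 members in KO cells (5.48%, against 7.46% of all genes) and for 5 in WT cells (6.85%, against 11.3% of all genes). The median difference from 0 h was -0.01 in KO cells, with 37 of 73 below 0 (56.2% of all genes), and -0.15 in WT cells, with 52 below 0 (50.2% of all genes). In KO cells 5 members had every early array below every 0 h array and 5 above, against 9.2% and 4.56% of all genes. In WT cells 8 were below and 0 above, against 8.24% and 6.24%. The lowest values among members measured on every array were those of Mrpl50 in KO cells (-0.53 ± 0.20, adjusted p = 0.59) and of Mrpl42 in WT cells (-0.56 ± 0.19, adjusted p = 0.295). Next lowest were Mrps34 in KO cells (-0.46) and Mrpl38 in WT cells (-0.56). Highest were Mrpl20 in KO cells (0.62) and Mrpl24 in WT cells (0.51), followed in both by Mrpl10, at 0.57 ± 0.25 in KO cells (adjusted p = 0.645) and 0.42 ± 0.25 in WT cells (adjusted p = 0.544). In simulated data a log2 change of 1 passed in 52% of genes in this KO contrast and in 50% in the WT one, so changes of this size can be missed. Each rate rests on 50 shifted genes in a single run.

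Late in the heat shock more members passed than early, and so did more of all genes. In each genotype the members' share past the threshold was near that of all genes. Of the members called higher, 3 were called in both genotypes, and Mrps24 passed in KO cells and not in WT cells. In KO cells 4 members were higher and 5 lower of 73, against 3.86% and 6.8% of all genes (10.7% in either direction). In WT cells 3 were higher and 3 lower, against 3.6% and 3.67% of all genes (7.27% in either direction). With arrays scaled to one width the counts were 5 higher and 7 lower in KO cells, and 3 higher and 0 lower in WT cells. Without centring they were 3 higher and 2 lower in KO cells and 3 higher and 1 lower in WT cells, and with quantile normalization 5 higher and 8 lower in KO cells and 3 higher and 1 lower in WT cells. The members' median was -0.22 in KO cells and -0.24 in WT cells, against -0.02 over all genes in each, and 56 members were below 0 in each genotype, against 51.9% and 51.8% of all genes. In KO cells 23 members had every late array below every 0 h array and 8 above, against 16.3% and 10.4% of all genes. In WT cells 12 were below and 4 above, against 10.6% and 9.42%.

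Mrpl10, the protein at the base of the stalk that binds translation factors, rose most in both genotypes. Its KO levels were -0.71, -0.72 and -0.60 unheated, then -0.45, -0.10, 0.24, 0.63, 0.87, 1.05 and 0.93 from 0.5 to 8 h. Its WT levels were -0.88, -0.72 and -0.99 unheated, then -0.76, -0.59, 0.04, 0.66, 0.17, 0.69 and 1.27. The late arrays lay above all 0 h arrays in each genotype, and WT 4 h was the lowest of them. Its late difference was 1.55 ± 0.23 in KO cells (2.92-fold, limma adjusted p = 0.000792) and 1.56 ± 0.23 in WT cells (2.95-fold, adjusted p = 0.00269). The KO minus WT difference in response was -0.01 ± 0.33 (adjusted p = 0.997). The gene has 1 probe, and both calls held with any single array left out, where the difference ran from 1.49 to 1.63 in KO cells and from 1.37 to 1.74 in WT cells.

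Mrpl52 and Mrpl27, of the large subunit, also rose in both genotypes. Mrpl52 was at 0.09, 0.44, 0.52 and 0.73 in late KO cells, against -0.57, -0.92 and -1.04 in KO cells at 0 h. It was at 0.86, 0.39, 0.80 and 0.77 in late WT cells, against -0.23, -0.52 and -0.23 in WT cells at 0 h. The late difference was 1.29 ± 0.21 in KO cells (2.44-fold, adjusted p = 0.00101) and 1.03 ± 0.21 in WT cells (2.04-fold, adjusted p = 0.00867). Mrpl27, a relative of bacterial L27, was at 0.38, 0.31, 0.96 and 1.04 in late KO cells, against -0.52, -0.58 and -0.71 in KO cells at 0 h. It was at 1.69, 0.49, 0.23 and 0.75 in late WT cells, against -0.82, -0.76 and -0.15 in WT cells at 0 h. The late difference was 1.28 ± 0.32 in KO cells (adjusted p = 0.0167) and 1.37 ± 0.32 in WT cells (adjusted p = 0.0182), and the KO call was lost without 0 h array 1 or 3, 6 h or 8 h and the WT call without 0 h array 1 or 2. In both genes late and 0 h arrays did not overlap.

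The rises of Mrpl52 and Mrpl27 came from 1 of 2 probes each. For Mrpl52 the first probe gave 0.05 in KO cells and -0.21 in WT cells, and the second 2.52 and 2.27. For Mrpl27 the first probe gave -0.06 in KO cells and 0.56 in WT cells, and the second 2.61 and 2.18. An exception was the WT 3 h array, where the first Mrpl27 probe stood at 2.29 and the second at 1.09. On the later WT arrays that first probe was at 0.34, -0.54 and -0.27. The second probes of both genes ran almost together over the 20 arrays, with a root mean square difference of 0.178 and no gap above 0.412. The same measure between the 2 probes of a gene was 1.26 for Mrpl27 and 1.21 for Mrpl52. Within a root mean square difference of 0.25 of the second probe of Mrpl27 lay 135 other probes, of which 77% list no gene, and within that of Mrpl52 lay 122, of which 78.7% list none. The Mrpl10 probe had 49 such neighbours, 73.5% of them with no gene, and lay 0.499 and 0.493 from the second probes of Mrpl27 and Mrpl52. Over all 32290 probes with a value on every array, 45.1% list no gene. Nearest named neighbours of the second probes were Gm16230, Timm8a2 and Pias1 for Mrpl27 and Pias1 and Rock1 for Mrpl52, and those of Mrpl10 were Rab15 and Azin1. These counts were made after the rises were seen. What the shared course of these probes stands for was not tested.

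**Figure D4:**
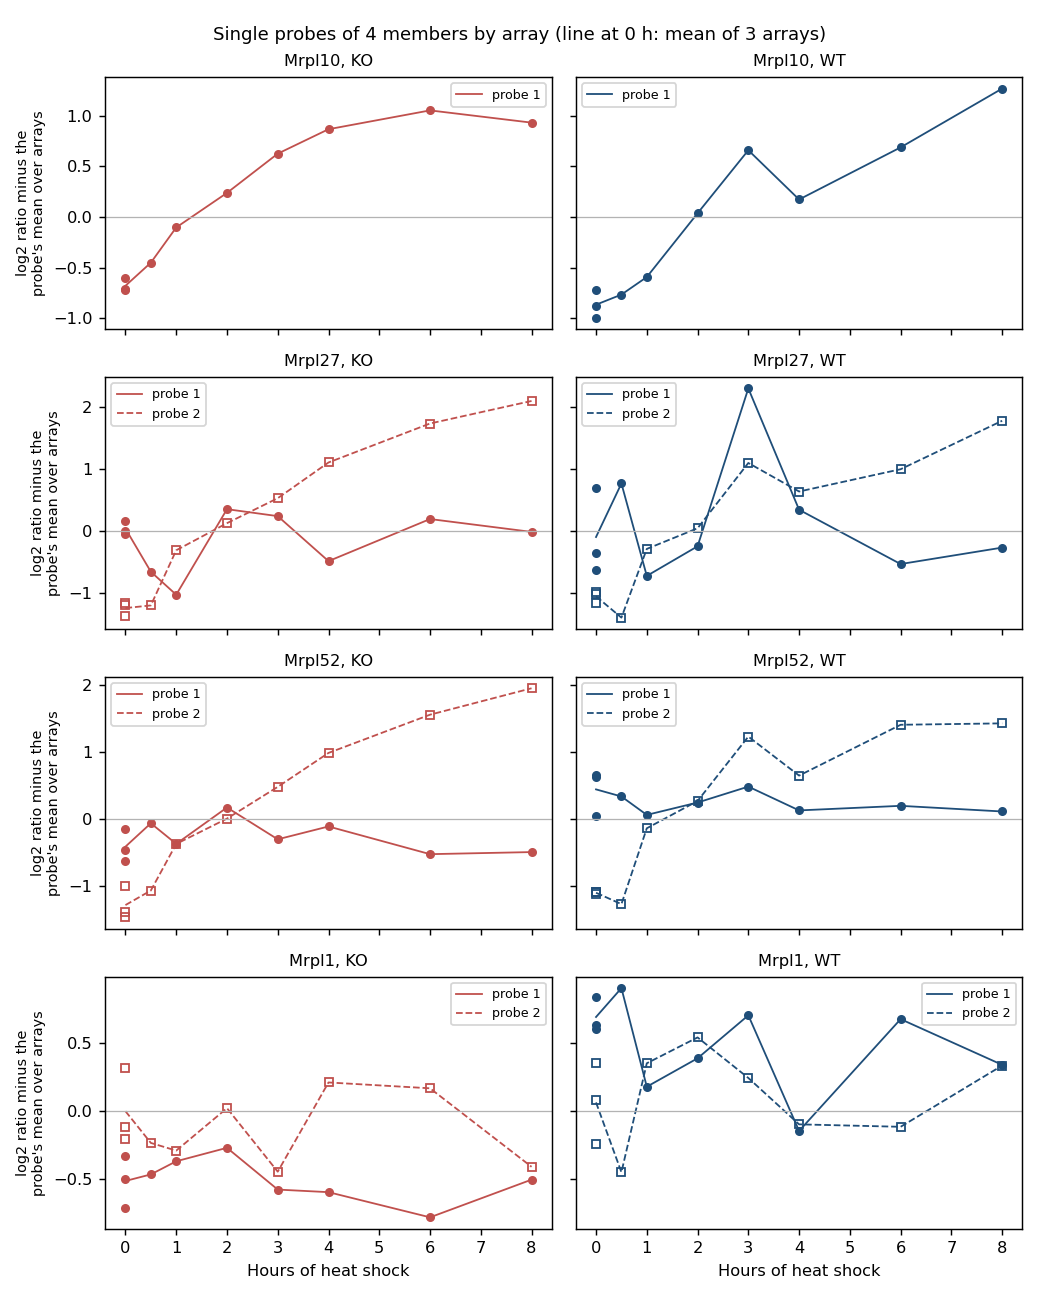
Levels of single probes of Mrpl10, Mrpl27, Mrpl52 and Mrpl1 by hours of heat shock, KO left and WT right, as log2 ratio minus the probe's mean over all arrays (points are arrays, lines join the times and start at the mean of the 3 arrays of 0 h). The second probes of Mrpl27 and Mrpl52 climb together to 2.09 and 1.95 at 8 h in KO cells and 1.77 and 1.43 in WT cells, while the first probes do not. The first probe of Mrpl27 has a lone high value at 3 h in WT cells (2.29). The first probe of Mrpl1 lies below 0 on every KO array and above 0 on every WT array but that of 4 h.

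The promoters of the members called higher late in both genotypes are shown in the same RefSeq windows of GRCm38.p6. For Mrpl52 and Mrpl27 the call rests on 1 of 2 probes, and a shared regulation of these genes was not tested. They are chr11:97041332-97041631 for Mrpl10, chr14:54426659-54426958 for Mrpl52 and chr11:94653541-94653840 for Mrpl27, all on the plus strand. Capitals mark the GABPA motif on either strand, which stands at 2 places in Mrpl52, at 1 in Mrpl27 and at none in Mrpl10. None of the windows holds the heat shock element, YY1 or NRF1 letters searched:
Mrpl10: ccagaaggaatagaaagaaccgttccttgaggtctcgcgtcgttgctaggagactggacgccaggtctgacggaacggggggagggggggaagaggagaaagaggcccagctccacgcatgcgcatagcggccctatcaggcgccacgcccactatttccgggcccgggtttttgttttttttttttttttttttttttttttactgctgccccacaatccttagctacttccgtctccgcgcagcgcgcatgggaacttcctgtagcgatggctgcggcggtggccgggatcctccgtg
Mrpl52: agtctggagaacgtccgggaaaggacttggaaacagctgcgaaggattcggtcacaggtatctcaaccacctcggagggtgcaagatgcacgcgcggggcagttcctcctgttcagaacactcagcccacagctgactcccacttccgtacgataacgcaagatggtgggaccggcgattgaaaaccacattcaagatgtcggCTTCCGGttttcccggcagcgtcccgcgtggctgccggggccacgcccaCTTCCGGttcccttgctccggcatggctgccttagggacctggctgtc
Mrpl27: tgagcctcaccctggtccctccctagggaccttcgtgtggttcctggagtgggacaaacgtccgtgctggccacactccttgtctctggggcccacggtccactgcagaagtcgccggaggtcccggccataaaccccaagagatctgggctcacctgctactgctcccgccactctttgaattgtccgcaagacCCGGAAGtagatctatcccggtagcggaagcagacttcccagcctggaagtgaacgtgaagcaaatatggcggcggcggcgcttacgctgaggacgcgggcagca

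Mrpl41, a large subunit protein found in mitochondrial ribosomes only, was the single member past the threshold for a late fall in both genotypes. Late KO levels were -0.30, -0.47, -0.70 and -0.46, against 0.54, 0.24 and -0.02 in KO cells at 0 h. Late WT levels were -0.39, 0.03, -0.23 and -0.56, against 0.64, 0.05 and 0.37 in WT cells at 0 h. The windows did not overlap, although WT 4 h came within a few hundredths of the lowest WT 0 h array. It fell by 0.74 ± 0.18 on the log2 scale in KO cells (limma adjusted p = 0.0122) and by 0.64 ± 0.18 in WT cells (adjusted p = 0.0362). Both probes were below 0 in both genotypes, from -0.78 to -0.51. The KO call was lost without KO 0 h array 1 (-0.60, adjusted p = 0.0846), and the WT call without any of 5 of the 7 WT arrays, all but 0 h array 2 and 4 h.

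The other members called lower late in KO cells had a large subunit role or, for Mrps36, none in the ribosome. Mrpl58, a peptidyl-tRNA hydrolase that is also built into the large subunit, was at 0.00, -0.37, -0.19 and -0.42 late, against 0.38, 0.22 and 0.42 at 0 h. Its groups were apart, at -0.59 ± 0.15 (adjusted p = 0.0191). Mrpl16 was at -0.37, -0.45, -1.15 and -0.70 late, against 0.12, -0.07 and -0.11 at 0 h, with no overlap. It differed by -0.65 ± 0.19 (adjusted p = 0.037), and its probes gave -1.13 and -0.16. Mrpl4, a relative of bacterial L4, also differed by -0.57 ± 0.18 (adjusted p = 0.0497) and Mrps36 by -0.48 ± 0.15 (adjusted p = 0.0481). In WT cells these 4 genes were at -0.24, -0.30, -0.34 and -0.29 and did not pass.

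A single small subunit gene passed the threshold for a late rise, Mrps24, a relative of bacterial S3. It was at 0.10, -0.09, 0.84 and 0.74 in late KO cells, against -0.61, -0.09 and -0.19 in KO cells at 0 h. Its 6 and 8 h arrays stood above the rest, and the difference was 0.69 ± 0.21 (adjusted p = 0.0422), against 0.32 ± 0.21 in WT cells (adjusted p = 0.376). In WT cells 2 small subunit genes passed as lower. Mrps18c was at 0.05, 0.05, -0.59 and -0.23 in late WT cells, against 0.34, 0.45 and 0.93 in WT cells at 0 h (-0.75 ± 0.21, adjusted p = 0.0412). Mrps15, a relative of bacterial S15, was at 0.21, -0.38, -0.03 and -0.10 in late WT cells, against 0.49, 0.27 and 0.97 in WT cells at 0 h (-0.65 ± 0.19, adjusted p = 0.0426). In both, the third 0 h array was the highest and no late array reached the 0 h range. In KO cells these were at -0.43 ± 0.21 (adjusted p = 0.217) and -0.36. Mrpl17, a relative of bacterial L17, was at -0.70 ± 0.22 in WT cells and just missed the threshold (adjusted p = 0.0594).

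Late counts also depended on single arrays. In KO cells the 9 calls became 2 without 0 h array 1, 4 without 0 h array 3, 4 without 6 h and 3 without 8 h. In WT cells the 6 calls became 3 without any one of the 3 arrays of 0 h, and also without 6 h or 8 h. The WT median of -0.24 was -0.34 without the 3 h array.

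**Figure D5:**
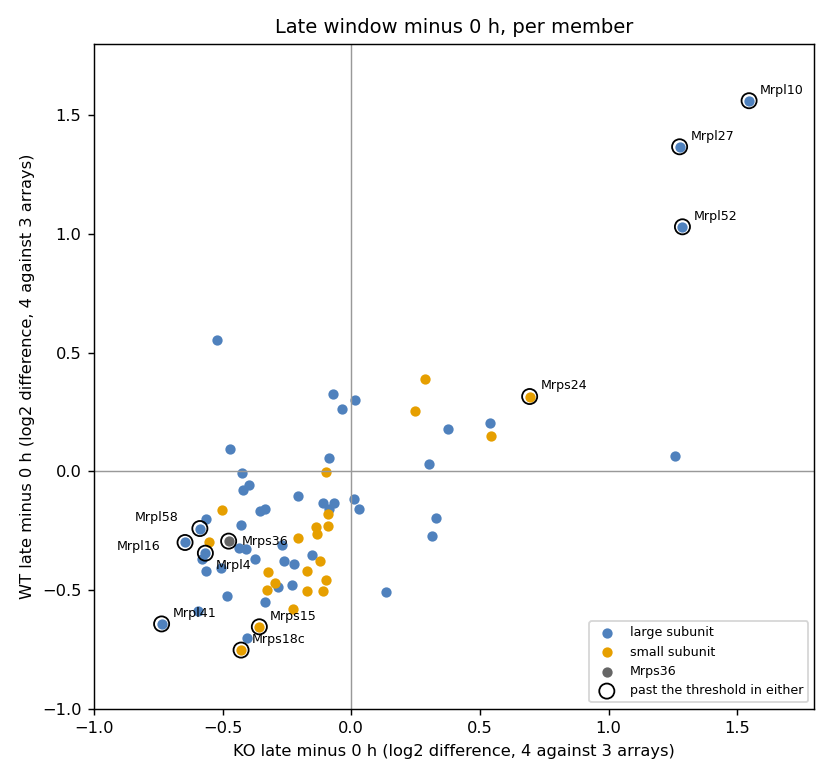
Late minus 0 h log2 difference of each member in KO cells (x axis) and in WT cells (y axis), 4 against 3 arrays each, coloured by subunit, with rings around members past the threshold in either. Mrpl10, Mrpl27 and Mrpl52 stand apart above 1 on both axes, while 51 of the 73 members lie below 0 on both.

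The late differences of the genotypes rest on separate arrays. They had the same sign in 63 of 73 members, against 68.5% of all genes: 51 were below 0 in both, against 36.1% of all genes, and 12 above 0 in both, against 32.4%. Besides Mrpl10, Mrpl27, Mrpl52 and Mrps24, those above 0 in both were Mrpl3, Mrpl9, Mrpl19, Mrpl38, Mrpl45, Mrps7, Mrps26 and Mrps27. Past the threshold in both were 3 members that rose and 1 that fell, against 1.85% and 1.67% of all genes. By subunit, 36 of 49 large subunit genes and 19 of 23 small subunit genes were below 0 in KO cells, and the same numbers were below 0 in WT cells. The medians were -0.27 (large) and -0.14 (small) in KO cells, and -0.20 and -0.30 in WT cells. Among genes with a bacterial relative the late median was -0.21 in KO cells and -0.23 in WT cells (43 genes), and among those found in mitochondrial ribosomes only it was -0.23 and -0.31 (27 genes).

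The last question was whether the responses themselves differed between the genotypes. By limma 0 members passed for the early response (0% of all genes) and 0 for the late response (0.0941% of all genes), with unadjusted p under 0.05 for 1 and 2 members (1.37% and 2.74%, against 8.37% and 8.72% of all genes). The median KO minus WT difference in response was 0.13 early, against -0.05 over all genes, and 0.06 late, against -0.02. Early 23 of 73 members were below 0, against 54.4% of all genes, and late 33, against 52.4%. Without centring the early median was -0.13, and that of all genes -0.31. Among members with a value on every array, Mrps12 stood highest early (0.78 ± 0.24, adjusted p = 0.578) and Mrpl13 lowest late (-1.07 ± 0.42, adjusted p = 0.502). Mrps21 was next highest early (0.72), and Mrpl24 (-0.53) and Mrps18b (-0.37) were lowest. Late, Mrpl15 (0.65) and Mrpl20 (0.59) were highest, and Mrps18a (-0.57) was next lowest to Mrpl13. In simulated data a log2 difference of 1 passed in 24% of genes early and 8% late, so differences of this size can be missed. Each rate rests on 50 shifted genes in a single run and depends on how many genes change. Nothing is therefore read from the gap between the rates.

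Some members were poorly measured. Mrpl9, a relative of bacterial L9, had 1 probe with a value on 17 arrays, and its WT 0 h levels were -0.93 and 2.38. Its difference of -1.71 ± 0.79 at 0 h had an adjusted p of 0.231. Mrps30 ranged from -3.16 at 0.5 h to 1.44 on a 0 h array within WT cells. Probes of 1 gene differed by more than 1 in at least one contrast in 20 of the 48 members with several probes. The widest gap was in Mrps34, whose probes ran from -2.74 to 0.97 for the early response. It was followed by Mrps31, with probes from -0.98 to 2.08 for the late response, Mrpl27 and Mrpl52 as above, and Mrpl2, with probes from -0.83 to 1.44 late in WT cells. The others were Mrpl1, Mrpl3, Mrpl13, Mrpl15, Mrpl21, Mrpl23, Mrpl30, Mrpl36, Mrpl38, Mrpl43, Mrpl49, Mrpl50, Mrpl55, Mrps17 and Mrps23, with gaps of 1.01 to 2.07. Besides the 155 probes, 5 list Mrps25 or Mrps6 together with a neighbouring gene and were left out.

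Some members overlap another gene on the chromosome (23 of 73), and spotted probes could read either. Mrpl43 overlaps Twnk, the helicase that unwinds mitochondrial DNA when it is copied. Twnk rose late by 1.65 ± 0.29 in KO cells (adjusted p = 0.0017) and by 1.14 ± 0.29 in WT cells (adjusted p = 0.0258), while Mrpl43 was at -0.08 ± 0.17 and 0.06 ± 0.17. The Mrpl43 probes ran from -0.30 to 0.04 late in KO cells and from -0.17 to 0.34 late in WT cells. Mrpl18 overlaps Tcp1, a subunit of the cytosolic CCT chaperonin. Tcp1 was lower in KO than in WT cells at 0 h (-0.97 ± 0.24, adjusted p = 0.0221), and Mrpl18 was at -0.27 ± 0.19 (adjusted p = 0.481). The Mrpl18 probes gave -0.07 and -0.46 there, and whether any of these probes reads the neighbouring gene was not tested. These 2 pairs were chosen after their values were seen.

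Other genes of mitochondrial translation changed in small numbers. The 3 measured subunits with other names, Dap3, Ptcd3 and Chchd1, passed in no contrast, and the lowest was Chchd1 between genotypes at 0 h (-0.52 ± 0.19, adjusted p = 0.111). Of 11 translation factors, Gfm1 (elongation factor G1, -0.61 ± 0.16) and Mrrf (the ribosome recycling factor, -0.53 ± 0.16) were lower in heated KO cells. Guf1, a relative of a bacterial elongation factor, was higher in KO cells at 0 h (0.58 ± 0.16, adjusted p = 0.0335) and in heated cells (0.35 ± 0.10, adjusted p = 0.04). Mtif2, the initiation factor, rose late in WT cells (1.32 ± 0.38, adjusted p = 0.0457), where its 0 h levels were -0.60, -0.48 and -1.76. In KO cells its late difference was 1.04 and did not pass. Its late KO levels were 0.59, 0.66, 0.93 and 0.72, against -0.32, -0.01 and -0.63 in KO cells at 0 h. Of 21 assembly and RNA factors, Slirp, which binds mitochondrial mRNAs, was lower in KO cells at 0 h (-0.78 ± 0.17, adjusted p = 0.00935) and in heated cells (-0.44 ± 0.11, adjusted p = 0.0169). Mterf4, which guides an rRNA methyltransferase, was higher in both (0.84 ± 0.23 and 1.11 ± 0.15), and Mrm2, an rRNA methyltransferase, was higher in heated KO cells (0.44 ± 0.13). Late in the heat Slirp, Oxa1l, the inner membrane insertase, and Letm1, an inner membrane protein, fell in both genotypes. They were at -0.67 ± 0.16, -0.58 ± 0.17 and -0.67 ± 0.19 in KO cells and at -0.84 ± 0.16, -0.59 ± 0.17 and -0.93 ± 0.19 in WT cells. None of 10 mitochondrial aminoacyl-tRNA synthetases passed in any of the 8 contrasts by limma. Of 12 genes of mitochondrial DNA transcription and maintenance, Polg was lower in heated KO cells (-1.03 ± 0.12, adjusted p = 2.68e-05), and Tfb2m rose late in WT cells (0.69 ± 0.19) beside Twnk in both genotypes. Tfb2m did not pass late in KO cells, where it was at -0.15, 0.28, 0.26 and -0.09, against -0.23, -0.59 and -0.36 at 0 h.

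Respiratory chain genes had late medians of -0.30 in KO cells (2 higher, 15 lower of 90) and -0.27 in WT cells (0 higher, 6 lower), near those of the members. Cytosolic ribosomal protein genes had late medians of 0.01 in KO cells and -0.24 in WT cells, with 0 of 64 past the threshold in each. No test was made of the members against these sets.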

How the data were processed

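Transcripts were measured on 20 two-colour arrays. The authors deposited 1 log ratio per probe and array, taken here as log2 of sample (Cy5) over pool (Cy3), per the labels' dyes. Neither the base of the logarithm nor the filtering and normalization of spots could be read from the labels or file headers, and these are not given in the sources used here. Natural logarithms would make the folds too small. Of 42624 probes, 21701 list 1 gene in the platform table. All 73 members matched the RefSeq GRCm38.p6 table by gene identifier.

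Each array was centred on its median. Probes were kept if every one of the 6 groups had 2 or more values, and a gene's value is the mean of its probes, each relative to its mean over the arrays. limma 3.58.1 (R 4.3.3) fitted 10625 genes over the 20 arrays with lmFit and eBayes (3.36 prior degrees of freedom). Tests were two-sided over 8 contrasts, with Benjamini-Hochberg adjustment over all genes and a threshold of 0.05. Heated KO minus WT weights early and late 3 to 4. The model was checked on simulated data. Alternatives were centring, quantile normalization, scaling of width, probes per gene, filters on missing values, arrays in the fit, blocks, and leaving out each array.

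Members past the threshold are named, up to 10 per contrast in full, with the 2 highest and 2 lowest per contrast, members with a known separate role and those with discordant probes. The members and lists were chosen with earlier results of these data known. Promoters are the first listed window per gene, from RefSeq. Those of Mrpl13, Mrpl15, Mrpl19, Mrpl38, Mrpl4, Mrpl54, Mrps28, Mrps34 and Mrps35 were not used here.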

Additional observations from a re-analysis of the deposited data

Results flagged for a closer look

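Arrays that stood far from the others of their window were looked for in the 33 members named by the rule, in 66 groups of 4 late arrays, with Dixon's criterion. Chance gives about 1 such array in 20 groups, and 5 were found. In late KO cells Mrpl20 was at -0.052 at 4 h while the other arrays lay between -0.43 and -0.37. Mrpl24 was at -0.39 at 6 h, with the others between 0.04 and 0.11. Mrps34 was at -0.11 at 3 h, with the others between 0.13 and 0.17. In late WT cells Mrps34 was at -1.68 at 4 h, with the others between -0.01 and 0.23. Mrpl3 was at 2.22 on the WT 6 h array, with the others between -0.23 and 0.15, and 1 of its 2 probes read 4.98 there. The late windows join different times, so a lone array can also be a lone time.

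In 2 of these 33 members the genotypes moved opposite ways from their 0 h means on every array of a window. Outside the 33, Mrpl32, Mrpl40 and Mrps10 did so early, higher in KO and lower in WT cells, and did not pass the test of the difference. How often this pattern occurs over all genes was not counted. With so few arrays per window it can arise by chance, so nothing about the members as a group is read from it. Mrps12 was higher on all early arrays than at 0 h in KO cells (0.35) and lower in WT cells (-0.43), a difference of 0.78 that did not pass (limma adjusted p = 0.578). Mrpl13 was at -0.52 late in KO cells and 0.55 in WT cells, a difference of -1.07 (adjusted p = 0.502), and its probes gave -2.14 and -0.16.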

How the results depend on the processing

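The number of members past the threshold moved with the processing, while the member medians kept their sign in every setting run except 2 medians without centring, given below, and the KO early median of -0.01, which was above 0 with 1 probe per gene (0.029) and without KO 0 h array 1, KO 0.5 h or KO 1 h. Between genotypes at 0 h the count of 3 became 1 with quantile normalization, 1 with scaled widths, 6 with 1 probe per gene and 0 with only the contrasted arrays, and leaving out 1 array gave 0 to 5 (median -0.29 to -0.22). The 0 h replicate numbers did not pair the arrays (correlation of deviations 0.0105, -0.0147 and -0.00343), and with the replicate block the count was 0. In heated cells the count of 6 became 3 with 1 probe per gene, 3 with only the contrasted arrays and 3 with time as a block, and 1 to 6 without 1 array (median -0.19 to -0.13). Late in KO cells the count of 9 became 5 without centring, 5 with 1 probe per gene, 4 with only the contrasted arrays and 2 to 8 without 1 array (median -0.26 to -0.16). Late in WT cells the count of 6 became 3 with scaled widths, 10 with 1 probe per gene, 2 with only the contrasted arrays and 3 to 6 without 1 array (median -0.34 to -0.20). Without centring the median was -0.14 at 0 h, 0.032 early in WT cells and -0.13 for the early response, where the median of all genes was 0.16, 0.19 and -0.31. Early medians ranged from -0.05 to 0.07 in KO cells and from -0.22 to -0.09 in WT cells without 1 array, and differences in response from 0.10 to 0.19 early and from 0.01 to 0.15 late, with 0 calls throughout. With 1 probe per gene Mrpl52 late in WT cells was -0.21 and Mrpl27 late in KO cells -0.055. Mrpl10 late kept its call in all 15 alternatives in each genotype, and Mrpl1 in heated cells in all 22. These counts do not cover disagreement between probes. Mrpl10 has 1 probe, so taking 1 probe per gene left its own values as they were. For Mrpl1 that setting kept the first probe (-0.94), and the second (-0.26) was not run alone. Fewer arrays in a fit leave fewer degrees of freedom, and the cause of the other shifts was not tested. Signal over background was not examined.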
